A study of Mus musculus with 12 samples.

Results

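The genes of 9 proteins that carry cytokine signals, the kinases Jak1, Jak2 and Jak3 and the factors Stat2, Stat3, Stat4, Stat5a, Stat5b and Stat6, were followed across T cells of 2 mouse strains. They were chosen by name. Every probe set (a group of short probes on the array that reads out 1 transcript) was used if the platform annotation names a member and no other gene. That gave 19 probe sets, 6 of kinases and 13 of STAT factors, of 45037 tested, and 9 of the 18193 genes that a probe set names alone. A further 2 probe sets name Jak3 together with another gene and were left out. The platform annotation's gene IDs of 9 of 9 members matched the RefSeq gene table.

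The samples were CD4+ T cells of the spleen from NOD mice, which develop autoimmune diabetes, and from B6.H2g7 mice (written B6g7), B6 mice that carry the MHC haplotype of NOD. In each strain the CD25hi cells stand for regulatory T cells (Treg) and the CD25- cells for conventional T cells (Tconv), which gave 4 groups (Tconv and Treg of each strain) with 3 arrays each and 12 in all. All mice were 6 weeks old, and their sex is not stated in the labels. Each array holds the pooled RNA of 3 mice, so it gives an average over animals, and the pools of a group were independent according to the series text. Magnetic enrichment was followed by a double sort that left out cells with CD8a, CD11b, CD69 or B220. Per the labels, Foxp3+ cells made up 94%, 96% and 96% of the B6g7 Treg pools and 89%, 95% and 95% of the NOD Treg pools. The labelled populations could be told apart in every array: Foxp3, the factor that defines Treg cells, lay between 10.67 and 11.26 in Treg and between 5.57 and 6.24 in Tconv (log2 intensity), and Il2ra, which encodes the CD25 used in the sort, between 10.69 and 11.10 in Treg and 5.50 and 5.83 in Tconv. Of 6 Treg marker genes 6 were higher in Treg, and Cd3e, a T cell receptor chain, lay between 11.84 and 12.65 in all arrays. Cd4 was lower in Treg, between 9.31 and 9.89, than in Tconv, between 9.90 and 10.22. Of 8 T cell marker genes measured, 1 was higher and 1 lower in Treg averaged over the strains, with a median change of -0.19. In such bulk samples, fewer cells of a type and less RNA per cell cannot be told apart.

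Cytokines such as IL-2, IL-7 and the interferons bind receptor chains that have no kinase activity of their own. JAK kinases sit on those chains, phosphorylate them and each other, and so make docking sites for STAT factors, which are phosphorylated in turn, pair up, enter the nucleus and bind DNA. In Treg cells, IL-2 acting through the high-affinity receptor with CD25 and through STAT5 is known to sustain Foxp3, while STAT3, STAT4 and STAT6 are known for the responses to IL-6 and IL-21, IL-12, and IL-4. This signalling runs on phosphorylation, which RNA arrays do not measure, so the values here are amounts of RNA only.

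Values are log2 intensities, and a difference of 1 is a change of 2-fold. Differences are given with the standard error of a limma fit over all 12 arrays, or with its 95% interval, and p-values carry a Benjamini-Hochberg adjustment over the 45037 probe sets of each comparison. A probe set was called when its adjusted p was under 0.05. The levels of different probe sets cannot be set against each other, so each gene is compared only with itself. Array medians lay between 83.9 and 88.6 on the linear scale, and the correlation of arrays within a group was 0.983 to 0.996. Precision is limited by the small number of arrays.

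Among the 19 probe sets, few passed the test in any comparison. Treg against Tconv in B6g7 gave 2 called (Stat5a and Stat5b), where 3.37% of all probe sets were called. In NOD 0 were called, against 3.2% of all probe sets. An unadjusted p under 0.05 was met by 2 of the 19, against 10.8% of all. Averaged over the strains, 2 were called (Stat5a and 1 probe set of Stat3), against 5.84%. The difference between the strains in the Treg change was called for 0 members and for 0.0933% of all probe sets. At an unadjusted p under 0.05 there were 2 members, against 4.54% of all. NOD against B6g7 gave 0 called in Tconv, against 2.96%, and 0 called in Treg, against 3.26%. The unadjusted counts there were 3 in Tconv, against 10.55% of all, and 1 in Treg, against 10.51%. Averaged over both populations 1 was called, a probe set of Stat3, against 5.5%. Unadjusted counts elsewhere were 3 for Treg against Tconv in B6g7 (11.71% of all) and 5 averaged over the strains (14.13%). For NOD against B6g7 averaged over the populations there were 2 (13.25%). With so few members, counts this small cannot be set apart from those background shares. The size of the changes was modest: the median absolute Treg change averaged over the strains was 0.14 for the 19 probe sets and 0.07 for all.

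**Figure D1:**
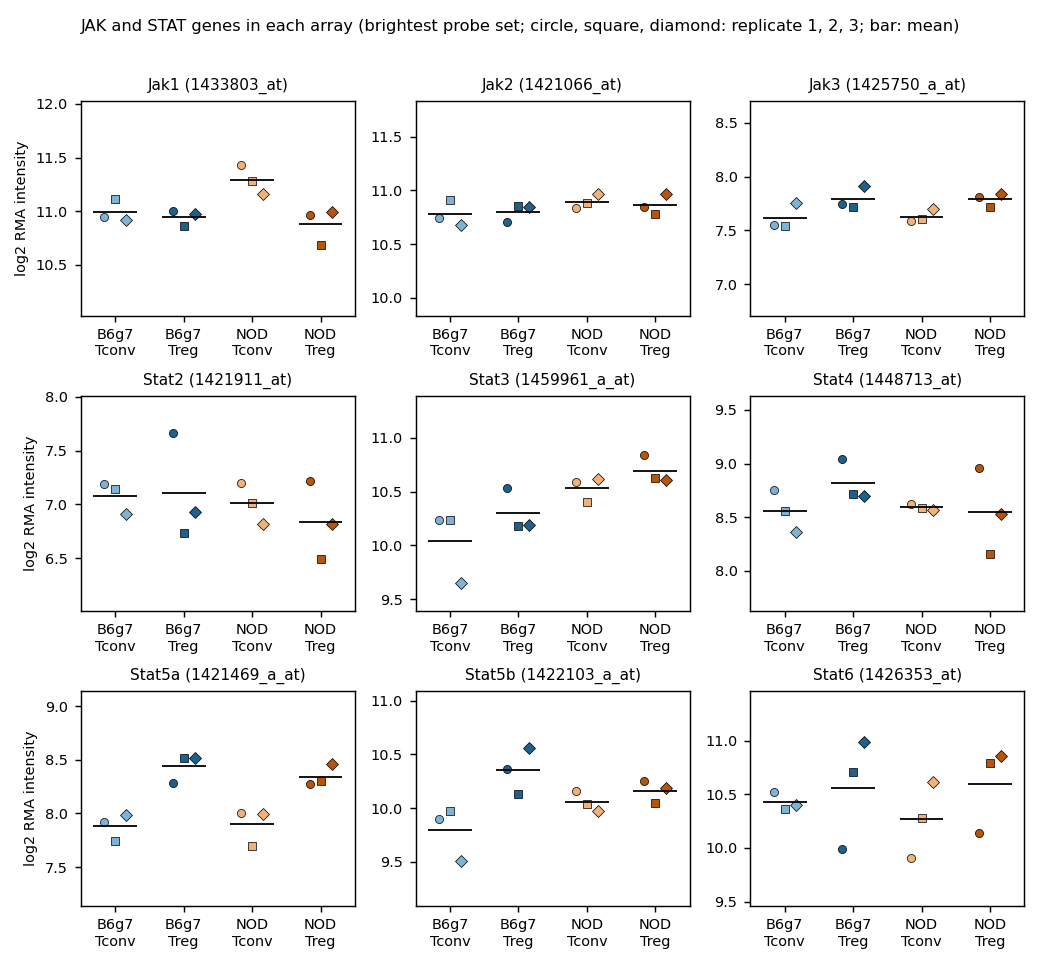
Log2 RMA intensity (vertical axis) of the brightest probe set of each of the 9 genes in the 4 groups (horizontal axis), with 1 point per array, the replicate number as the point's shape and a bar at the group mean. The Stat5a points of both Treg groups lie above all Tconv points, the Stat3 points of NOD lie above those of B6g7 within each population, and the Jak2 points overlap in all groups.

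STAT5 exists as 2 closely related proteins, from the genes Stat5a and Stat5b, which act downstream of IL-2, IL-7 and IL-15. Stat5a RNA was the member that was higher in Treg in the most settings, 1.41-fold over both strains. Its brightest probe set, 1421469_a_at, read 7.92, 7.75 and 7.99 in B6g7 Tconv and 8.28, 8.51 and 8.52 in B6g7 Treg. In NOD it read 8.01, 7.70 and 7.99 in Tconv and 8.27, 8.30 and 8.46 in Treg. Every Treg array lay above every Tconv array, from 8.27 upwards against 8.01 at most, and the 2 strains overlapped within each population. The group means, in order, were 8.44 ± 0.13 (SD, n = 3) in B6g7 Treg, 8.34 ± 0.10 in NOD Treg, 7.90 ± 0.17 in NOD Tconv and 7.89 ± 0.12 in B6g7 Tconv. The difference was 0.50 ± 0.08 (SE) averaged over the strains (limma adjusted p = 0.00161, higher in 6 of 6 Treg arrays), and was called in 21 of 21 other settings of the analysis, at values from 0.28 to 0.59. The lowest of these came from the mean over both Stat5a probe sets. In B6g7 alone it was 0.55 ± 0.11, or 1.47-fold (adjusted p = 0.0155), and in NOD alone 0.44 ± 0.11, or 1.36-fold, which missed the threshold (adjusted p = 0.0583). The strains did not differ in this change beyond the error, at -0.11 with a 95% interval from -0.46 to 0.24. The B6g7 call was lost without B6g7 Tconv replicate 2 (adjusted p = 0.0854), B6g7 Treg replicate 2 (0.0691) or B6g7 Treg replicate 3 (0.0682). It was also lost with only the arrays compared (0.0596). The NOD value passed in 5 of 22 other settings, 1 of them without B6g7 Treg replicate 1 (adjusted p = 0.0449). The others, described below, were median centring (0.0423), array weights (0.0137), the replicate block (0.0226) and the actin covariate (0.0498). The other Stat5a probe set, 1450259_a_at, was dim, with group means under 5.28, the 25th percentile of all probe set means, and differed by 0.07 (adjusted p = 0.827).

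Stat5b RNA was higher in Treg of B6g7, by 1.47-fold, on its brightest probe set, 1422103_a_at. That probe set read 9.90, 9.97 and 9.51 in B6g7 Tconv against 10.36, 10.13 and 10.56 in B6g7 Treg. In NOD it read 10.16, 10.04 and 9.98 in Tconv against 10.25, 10.05 and 10.19 in Treg. The B6g7 groups did not overlap, with the lowest value in Tconv replicate 3, whereas the NOD groups did. From high to low the means were 10.35 ± 0.21 in B6g7 Treg, 10.16 ± 0.10 in NOD Treg, 10.06 ± 0.09 in NOD Tconv and 9.79 ± 0.25 in B6g7 Tconv, and the 2 NOD means differed by no more than their spread. The Treg change was 0.56 ± 0.14 in B6g7 (adjusted p = 0.0438) and 0.10 ± 0.14 in NOD (adjusted p = 0.924). Its difference between the strains was -0.46 with a 95% interval from -0.88 to -0.04, but did not pass the limma fit over all probe sets (adjusted p = 0.962). The B6g7 call was at the threshold: it held without B6g7 Tconv replicate 2 or without B6g7 Treg replicate 2 and was lost without any 1 of the other 10 arrays, with an adjusted p from 0.0269 to 0.184 over the 12 omissions. Weighting the arrays by their quality lowered the change to 0.29 (adjusted p = 0.113). Over all 22 other settings the B6g7 change was called in 7, with an adjusted p from 0.0171 to 0.196. Averaged over the strains the change was 0.33 ± 0.10 (adjusted p = 0.0724). The other probe set, 1422102_a_at, had Treg changes of 0.12 in B6g7 and 0.16 in NOD, neither called, and a difference between the strains of 0.04 with a 95% interval from -0.25 to 0.33.

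Stat5b, Stat5a and Stat3 are consecutive protein-coding genes on mouse chromosome 11 in the RefSeq table, with Stat5a on the forward strand and the other two on the reverse strand. Of the members, Stat5a and Stat5b also share sequence at a start of transcription. The best match without gaps over 50 bases was sought between the 300-base windows (250 bases before to 50 after a start) of different members, over 63 pairs of windows from RefSeq GRCm38.p6. The pair below had 45 of 50 bases identical, and the next pair had 31. They are shown because the 2 genes, known copies of one ancestor, were both called higher in B6g7 Treg and share this stretch just upstream of a start. Each of the 2 genes has 2 windows. The Stat5b window shown lies downstream, in the direction of the gene, of its other window at 100850532-100850831. The best match of a Stat5a window to that other window was 31 of 50 bases. Whether the stretch bears on the RNA of either gene was not tested. The capitals mark the 50 matched bases, which end 16 bases before the start in Stat5a and 7 before it in Stat5b.
Stat5a, chr11:100860234-100860533, forward strand: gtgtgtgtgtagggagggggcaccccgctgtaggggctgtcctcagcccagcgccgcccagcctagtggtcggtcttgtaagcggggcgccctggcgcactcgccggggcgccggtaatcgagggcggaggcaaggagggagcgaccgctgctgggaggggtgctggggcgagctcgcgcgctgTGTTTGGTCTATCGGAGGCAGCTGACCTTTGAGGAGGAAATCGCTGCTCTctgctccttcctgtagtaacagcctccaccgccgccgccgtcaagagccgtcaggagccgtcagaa
Stat5b, chr11:100822521-100822820, reverse strand: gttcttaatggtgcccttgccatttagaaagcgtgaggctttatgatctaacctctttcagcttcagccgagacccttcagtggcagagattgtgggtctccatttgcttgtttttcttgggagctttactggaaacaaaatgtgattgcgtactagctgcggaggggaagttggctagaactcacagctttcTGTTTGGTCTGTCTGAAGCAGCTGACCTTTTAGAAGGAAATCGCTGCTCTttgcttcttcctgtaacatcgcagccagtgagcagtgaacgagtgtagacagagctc
The 12 windows of the 9 genes held 0 matches to TTCNNNGAA, the letters of the STAT binding motif (a palindrome, so 1 search covers both strands), which 8.3% of all 32851 windows hold. TGTTTAC, letters of the forkhead motif, had 0 matches on either strand, against 3.65% of all windows. GGGCGG, letters of the motif bound by Sp1 and a search added after the others, was in 7 of the 12 windows on 1 strand or the other, against 35.7% of all. The share of G and C was 58.5% in the median member window and 52.7% in the median of all. Such matches describe letters in these windows and no more.

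Stat3 RNA was higher in NOD than in B6g7, by 1.36-fold on its brightest probe set. STAT3 carries signals of IL-6, IL-10, IL-21 and IL-23. The probe set 1459961_a_at read 10.24, 10.23 and 9.65 in B6g7 Tconv and 10.59, 10.40 and 10.62 in NOD Tconv. In Treg it read 10.53, 10.18 and 10.19 in B6g7 and 10.84, 10.63 and 10.61 in NOD. Within Tconv and within Treg every NOD array lay above every B6g7 array, and B6g7 Tconv replicate 3 was the lowest of all by a wide margin. From low to high the means were 10.04 ± 0.34 for Tconv and 10.30 ± 0.20 for Treg of B6g7, then 10.54 ± 0.12 for Tconv and 10.69 ± 0.13 for Treg of NOD, with neighbours that differ by about their spread. The strain difference was 0.44 ± 0.11 averaged over the populations (adjusted p = 0.0355, 95% interval from 0.20 to 0.69), 0.50 ± 0.16 in Tconv (adjusted p = 0.171) and 0.39 ± 0.16 in Treg (adjusted p = 0.356). The averaged call was lost without any 1 of NOD Tconv replicate 1 or 3, B6g7 Treg replicate 2 or 3, or NOD Treg replicate 1, 2 or 3 (adjusted p from 0.0617 to 0.0943), and over the mean of all Stat3 probe sets the difference was 0.19 (adjusted p = 0.183). Over all 21 other settings the averaged difference was called in 12, with an adjusted p from 0.0033 to 0.183.

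The 4 Stat3 probe sets did not give 1 picture of the strains. The strain difference averaged over the populations was 0.17 ± 0.06 on 1460700_at (adjusted p = 0.18), 0.18 on 1426587_a_at (adjusted p = 0.756) and -0.04 on 1424272_at (adjusted p = 0.948). Against Tconv, in turn, the Treg level passed on 1460700_at only. That probe set read 8.99, 9.05 and 9.05 in B6g7 Tconv and 9.24, 9.28 and 9.37 in B6g7 Treg. In NOD it read 9.20, 9.20 and 9.34 in Tconv and 9.46, 9.31 and 9.49 in Treg. The groups were separate in B6g7, while in NOD the Treg array of replicate 2 lay below the highest Tconv array. The difference was 0.22 ± 0.06 averaged over the strains, or 1.17-fold (adjusted p = 0.0498), so it lay at the threshold. Of the 12 omissions of 1 array, only that of NOD Treg replicate 2 kept the call (adjusted p = 0.0384), and the adjusted p reached 0.129. On 1459961_a_at the same change was 0.21 ± 0.11 (adjusted p = 0.473), on 1426587_a_at 0.25 (adjusted p = 0.5) and on 1424272_at -0.01 (adjusted p = 0.983).

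**Figure D2:**
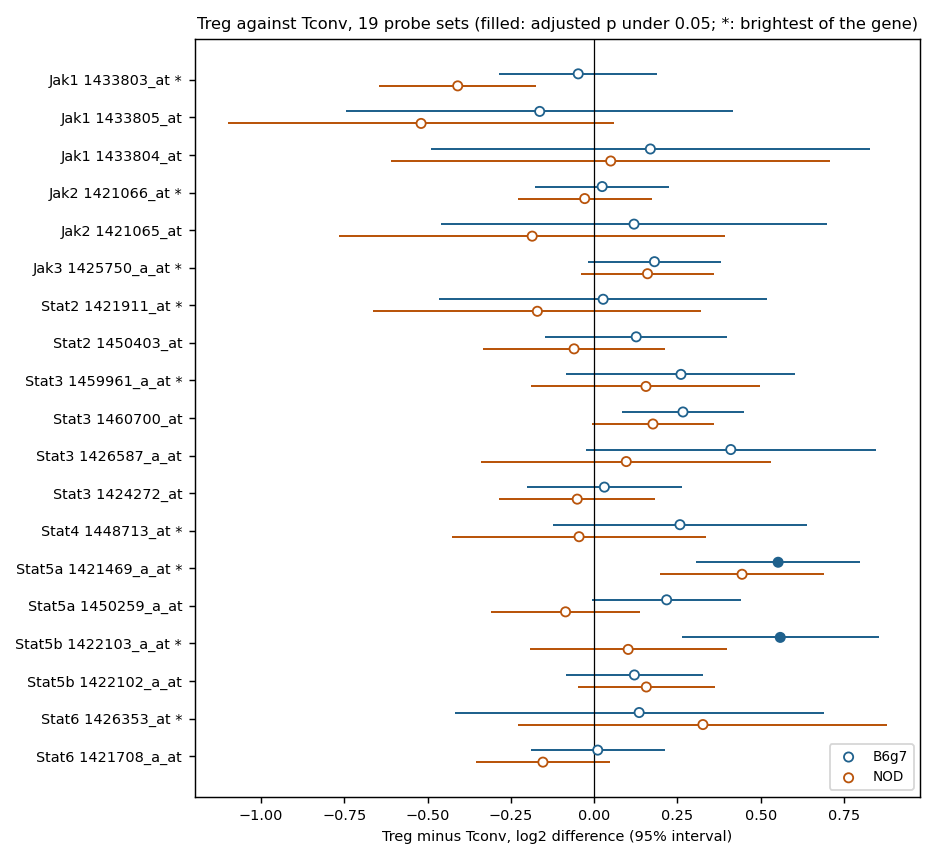
Treg minus Tconv (horizontal axis, log2 difference with its 95% interval) for each of the 19 probe sets (vertical axis), with B6g7 and NOD as separate points and filled points for an adjusted p under 0.05. In B6g7 only Stat5a at 0.55 and Stat5b at 0.56 are filled, and in NOD the largest values on either side, Jak1 at -0.52 and Stat5a at 0.44, are not.

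JAK1 serves most of these receptors, paired with JAK3, JAK2 or TYK2, and was the member with the lowest Treg level relative to Tconv in NOD. The brightest Jak1 probe set, 1433803_at, read 11.43, 11.28 and 11.16 in NOD Tconv and 10.96, 10.68 and 11.00 in NOD Treg. In B6g7 it read 10.95, 11.12 and 10.92 in Tconv and 11.00, 10.86 and 10.98 in Treg. The NOD groups did not overlap, the B6g7 groups did, and NOD Tconv stood above the other groups, at a mean of 11.29 ± 0.13 against 10.99 ± 0.11 in B6g7 Tconv, 10.95 ± 0.07 in B6g7 Treg and 10.88 ± 0.17 in NOD Treg. The last 3 means differed by no more than their spread. The Treg change in NOD was -0.41 ± 0.11 and missed the threshold (adjusted p = 0.0714), with a 95% interval from -0.65 to -0.17. In B6g7 it was -0.05 ± 0.11 (adjusted p = 0.939), and the difference between the strains was -0.36 ± 0.15 (adjusted p = 0.962). Tconv of NOD were above Tconv of B6g7 by 0.30 ± 0.11 (adjusted p = 0.285).

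The other Jak1 probe sets were noisier. On 1433805_at the NOD values were 11.00, 10.55 and 10.33 in Tconv and 10.54, 9.86 and 9.92 in Treg, and the B6g7 values 10.52, 10.42 and 9.70 in Tconv and 10.50, 9.88 and 9.77 in Treg. In every group replicate 1 was the highest, and the Treg change in NOD was -0.52 ± 0.27 (adjusted p = 0.559). On 1433804_at it was 0.05 ± 0.30 (adjusted p = 0.99). Arrays with the same replicate number deviated together in the 2 NOD groups. With B6g7 Tconv they did not do so at every number, with a correlation as low as -0.21 against NOD Treg. The replicate number was entered as a block over all 12 arrays, B6g7 Tconv included. With that number as a block in the fit, 3 member probe sets passed for Treg against Tconv in NOD: Jak1 1433803_at at -0.41 (adjusted p = 0.0478), Jak1 1433805_at at -0.52 (adjusted p = 0.0304) and Stat5a 1421469_a_at at 0.44 (adjusted p = 0.0226). The block raised the number called over all probe sets from 1443 to 2362.

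JAK2 serves the receptors of IL-12, IL-23 and interferon gamma, and its RNA was called in no comparison. Its brightest probe set, 1421066_at, ranged from 10.68 to 10.97 over the 12 arrays, and all 4 groups overlapped. The Treg change averaged over the strains was -0.00, with a 95% interval from -0.14 to 0.14, and the strain difference was 0.09, with an interval from -0.05 to 0.23. The dimmer probe set 1421065_at left more room, with a Treg change of -0.03 and an interval from -0.44 to 0.38.

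JAK3 binds the common gamma chain, the shared receptor subunit of IL-2, IL-4, IL-7, IL-15 and IL-21. Its probe set, 1425750_a_at, read 7.55, 7.54 and 7.75 in B6g7 Tconv and 7.75, 7.72 and 7.91 in B6g7 Treg. In NOD it read 7.59, 7.60 and 7.69 in Tconv and 7.81, 7.72 and 7.83 in Treg. The NOD groups were separate, while B6g7 Tconv replicate 3 lay among the B6g7 Treg arrays. The change of 0.17 ± 0.06 averaged over the strains did not pass (adjusted p = 0.204), with a 95% interval from 0.03 to 0.31. The strain difference was 0.01, with an interval from -0.13 to 0.15.

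Stat2, Stat4 and Stat6 were called in no comparison of the fit over all 12 arrays. STAT2 works in the complex that answers type I interferons, and its brightest probe set, 1421911_at, ranged from 6.49 in NOD Treg replicate 2 to 7.66 in B6g7 Treg replicate 1, so that both extremes were Treg arrays. Its Treg change was -0.07, with a 95% interval from -0.42 to 0.28, and its strain difference was -0.17, with an interval from -0.52 to 0.18. The other Stat2 probe set, 1450403_at, had a Treg change of 0.03, with an interval from -0.16 to 0.23. Its strain difference was 0.01, with an interval from -0.18 to 0.20. STAT4 carries the IL-12 signal. Its probe set, 1448713_at, read 8.75, 8.56 and 8.37 in B6g7 Tconv and 9.04, 8.71 and 8.70 in B6g7 Treg. In NOD it read 8.63, 8.59 and 8.57 in Tconv and 8.96, 8.16 and 8.53 in Treg. The NOD Treg arrays spanned all the NOD Tconv arrays on both sides, and the averaged change was 0.11 ± 0.12 (adjusted p = 0.839).

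STAT6 carries the IL-4 signal. Its brightest probe set, 1426353_at, read 10.52, 10.36 and 10.40 in B6g7 Tconv and 9.99, 10.71 and 10.99 in B6g7 Treg. In NOD it read 9.91, 10.28 and 10.62 in Tconv and 10.14, 10.79 and 10.86 in Treg. Replicate 1 was the lowest in 3 of the 4 groups, and its distance from the other arrays was larger than any difference between groups. The Treg change was 0.23 ± 0.18 (adjusted p = 0.706), and without the 4 arrays numbered 1 it was 0.42 (adjusted p = 0.0415). The other probe set, 1421708_a_at, had a change of -0.07 (adjusted p = 0.771).

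**Figure D3:**
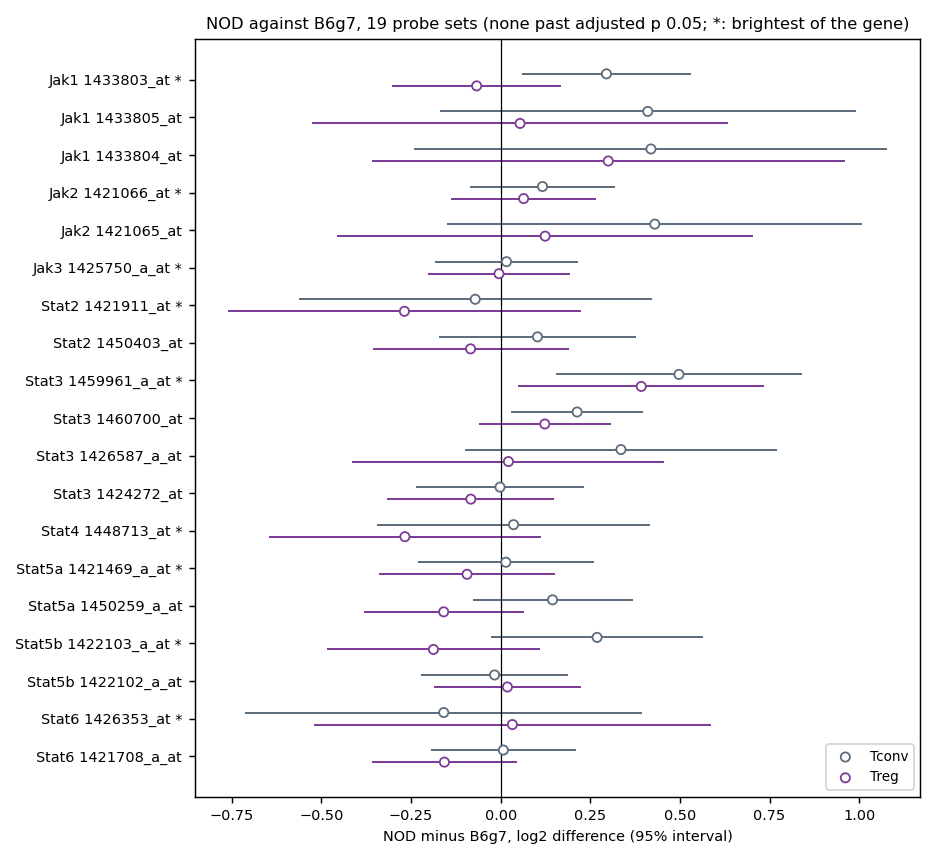
NOD minus B6g7 (horizontal axis, log2 difference with its 95% interval) for each of the 19 probe sets (vertical axis), within Tconv and within Treg. The intervals of Stat3 1459961_a_at lie above 0 in both populations, at 0.50 and 0.39, and no point passes an adjusted p of 0.05.

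Several members varied within the groups by replicate number. Replicate 1 was the highest array in all 4 groups for 5 of the 19 member probe sets (26.3%), against 7.07% of all probe sets. These were 1433805_at of Jak1, 1421065_at of Jak2, 1421911_at of Stat2, 1426587_a_at of Stat3 and the Stat4 probe set, with replicate 1 above the other arrays by 0.59, 0.60, 0.46, 0.41 and 0.32. Stat6 1426353_at went the other way, by -0.49. The gap between the 3' and 5' probe sets for actin (3' minus 5', log2), a measure of RNA length and of how far amplification reached, was lowest in replicate 1 in 3 of the 4 groups, at 2.66 (B6g7 Treg), 2.97 (NOD Tconv) and 3.29 (NOD Treg) against 3.79 to 4.70 for the other arrays of those groups. Between the populations its range was similar, from 2.97 to 4.43 in Tconv and from 2.66 to 4.70 in Treg. With it as a covariate, the averaged Treg changes were 0.48 for Stat5a (adjusted p = 0.000451) and 0.35 for Stat5b (adjusted p = 0.0239). Its part in the spread of the members was not tested.

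**Figure D4:**
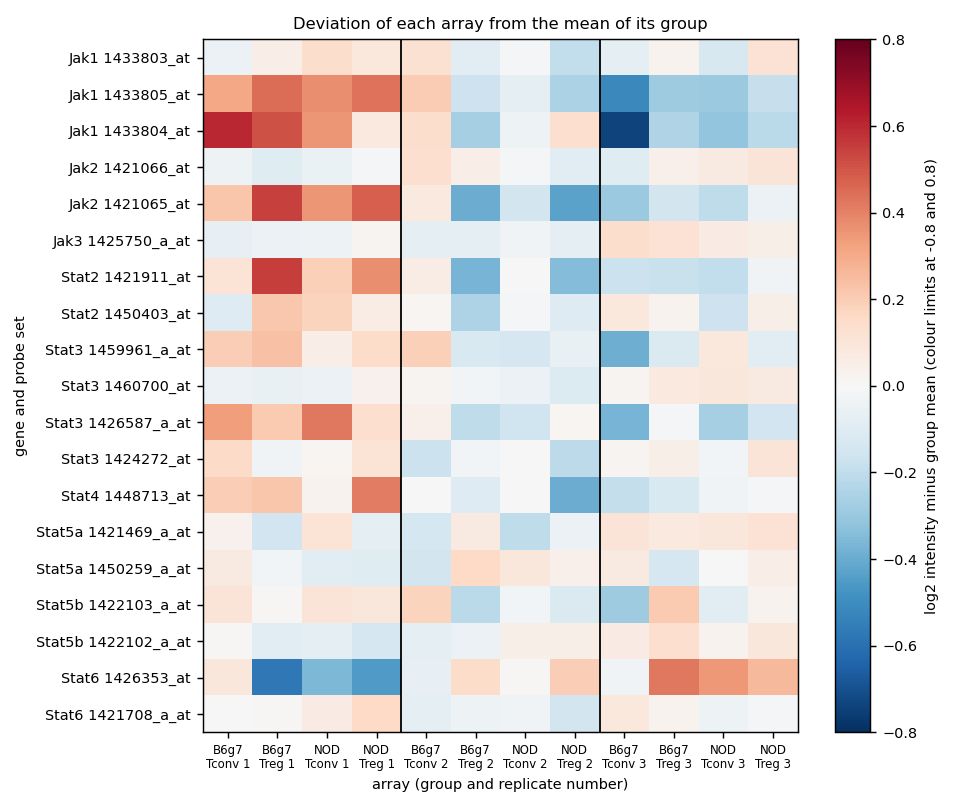
Deviation of each array from the mean of its group (colour, log2) for the 19 probe sets (vertical axis) over the 12 arrays in order of replicate number (horizontal axis). Replicate 1 stands out upwards for probe sets of Jak1, Jak2, Stat2, Stat3 and Stat4 and downwards for Stat6 1426353_at, while the rows of Stat5a 1421469_a_at and Stat3 1460700_at are paler.

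The genes whose pattern over the 12 arrays was most like that of a called member were found by the root mean square difference of log2 values, each gene less its own mean, among 15082 genes. Nearest to Stat5a (own spread 0.27) were Unc119 at 0.0858 and Phc3 at 0.0899. For Stat5b (own spread 0.25) they were Fam107b at 0.0888 and Itga6, an integrin chain, at 0.0917. For Stat3 (own spread 0.30) they were Ccnh at 0.11 and Ezh2, the histone methyltransferase of the Polycomb system, at 0.12. A smaller value means a closer match. As the choice by likeness implies, the 2 genes nearest to Stat5b had Treg changes of 0.51 and 0.63 in B6g7 against 0.09 and 0.12 in NOD.

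The other genes of the pathway are described by lists of textbook members, each gene by its brightest probe set, in the Treg change averaged over the strains. The lists were chosen with earlier results of these data known, so their counts beside the shares of all genes are a description only. Over all 18193 genes, 4.46% were higher in Treg, 3.03% were lower, and the median change was -0.01. Of the receptor chains, upstream of the members, 6 of 18 measured were higher, 1 was lower, and the list's median was 0.19. Apart from Il2ra (5.20 ± 0.07, adjusted p = 6.05e-13), on which the cells were sorted, Il2rb, the signalling chain of the IL-2 and IL-15 receptors, was higher by 3.38 ± 0.11 (adjusted p = 1.13e-09), or 10.4-fold. Il10rb, Ifngr1, Il12rb1 and Ifnar1, chains for IL-10, interferon gamma, IL-12 and type I interferon, were higher by 0.73, 0.64, 0.61 and 0.32. In NOD alone Ifngr1 (adjusted p = 0.0531) and Ifnar1 (adjusted p = 0.576) were not called. Il7r, the IL-7 receptor chain, was lower by 1.67-fold (-0.74 ± 0.08, adjusted p = 6.24e-05). Of 11 cytokine genes 3 were lower, Il21 (-0.997), Ifng (-0.79) and Il4 (-0.31), and 1 was higher, Il10 (0.25). The Il21 value averages unlike strains, with a Treg change of -0.10 in B6g7 (adjusted p = 0.938) and -1.89 in NOD (adjusted p = 0.00029), a difference of -1.79 that did not pass (adjusted p = 0.094). Ifng changed by -0.40 in B6g7 (adjusted p = 0.686) and by -1.18 in NOD (adjusted p = 0.0354). Il4 was called in neither strain alone (adjusted p = 0.115 in B6g7 and 0.56 in NOD). Il10 was called in B6g7 (0.37, adjusted p = 0.0478) and not in NOD (0.13, adjusted p = 0.751). Group means of 5.72 to 6.11 for Il4 and 5.56 to 5.92 for Il10 lay near the dim limit of 5.28. When 1 array was left out, 1 to 3 cytokine genes were lower and 0 or 1 higher, whereas the receptor counts stayed at 6 and 1.

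Among 18 inhibitors 3 rose and 0 fell, with a median of 0.09. They were Cish, a SOCS-family protein induced by STAT5, by 1.89 ± 0.11 (adjusted p = 1.36e-07), Socs5 by 0.93 ± 0.16 (adjusted p = 0.00234) and Socs2 by 0.50 ± 0.12 (adjusted p = 0.0277). The best known feedback inhibitors did not pass, with Socs1 at 0.21 (adjusted p = 0.178) and Socs3 at 0.63 (adjusted p = 0.182). Of 12 partners of STAT factors, Stam2 was the 1 that rose (0.33 ± 0.08, adjusted p = 0.0337), and the median was -0.02. Stam2 was called in neither strain alone (adjusted p = 0.0608 in B6g7 and 0.629 in NOD). Nor was Socs2 (adjusted p = 0.565 in B6g7 and 0.0502 in NOD). Leaving out 1 array at a time gave 2 to 5 inhibitors and 0 or 1 partners higher in Treg.

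The STAT5 target genes had the largest share of calls: 9 of 18 rose, 1 fell and the median was 0.52. Besides Il2ra and Foxp3, which define the cells, these were Tnfrsf4, the receptor OX40 (2.68), Cish (1.89), the kinase Pim1 (1.34), Lta (1.22), the survival gene Bcl2l1 (0.77), Gzmb (0.54) and Socs2 (0.50). Pim2, a kinase of the same family as Pim1, fell by 0.84. In NOD alone Gzmb was not called (adjusted p = 0.135). The list names genes that STAT5 is known to act on, and several are also known Treg genes, so the count is a description of these cells. Of 10 STAT3 targets 3 rose (Maf by 1.37, Bcl3 by 1.13 and Rora by 0.67) and Il21 fell. Maf (adjusted p = 0.0892) and Rora (adjusted p = 0.063) were not called in B6g7 alone. Of 10 STAT4 targets, Gadd45g (0.99) and Ikzf3 (0.82) rose, while Ifng and Tbx21, the T-bet factor of type 1 responses, fell, Tbx21 to a dim level in B6g7 Treg. Gadd45g was not called in NOD alone (adjusted p = 0.0765). Of 8 STAT6 targets, Cish, Gfi1 (1.65) and Gata3 (0.73) rose and Il4 fell. Of 15 interferon-stimulated genes, which STAT2 serves, Isg20 (0.94) and Usp18 (0.87) rose and Oas2 (-0.38) fell. Usp18 was called in neither strain alone (adjusted p = 0.222 in B6g7 and 0.156 in NOD), and Oas2 not in NOD (0.503). Over the omissions of 1 array the STAT5 targets higher in Treg numbered 8 to 11, the STAT4 targets lower in Treg 1 to 3, the STAT6 targets lower 0 or 1 and the interferon-stimulated genes higher 1 to 3.

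**Figure D5:**
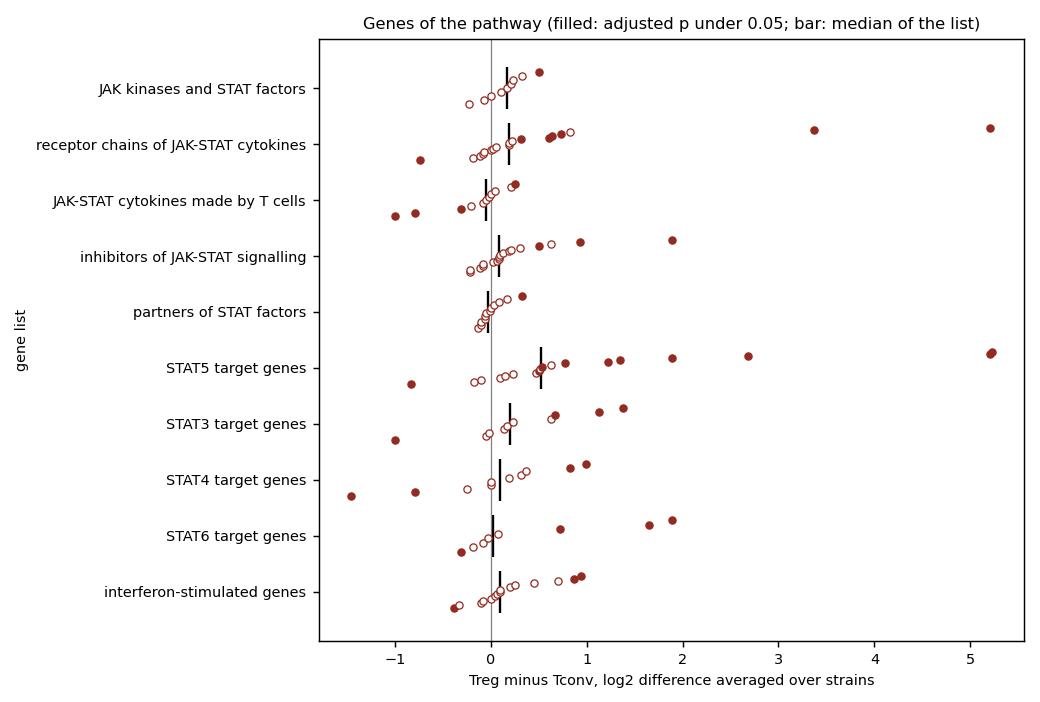
Treg minus Tconv averaged over the strains (horizontal axis, log2) for the genes of each list (vertical axis), 1 point per gene, filled where the adjusted p was under 0.05, with a bar at the list's median. The points of the JAK and STAT genes lie between -0.23 and 0.50, while the receptor chains and STAT5 targets reach beyond 5.

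Between the strains, 3.25% of all genes were higher in NOD and 2.56% lower, averaged over the populations, with a median of 0.01. Of 18 receptor chains, 18 inhibitors, 12 partners and 8 STAT6 targets, 0 were called. Of the STAT3 targets 3 of 10 were higher in NOD, Maf (1.09 ± 0.20, adjusted p = 0.00502), Il21 (0.88 ± 0.16, adjusted p = 0.00437) and Rora (0.43 ± 0.11, adjusted p = 0.0372), and the list's median was 0.29. For Il21 the difference was 1.77 in Tconv (adjusted p = 0.000491) and -0.02 in Treg (adjusted p = 0.996), while for Maf it was 0.74 in Tconv (adjusted p = 0.326) and 1.44 in Treg (adjusted p = 0.013). Leaving out 1 array at a time gave 2 or 3 of these. Of the STAT5 targets Ccnd3 (1.05), Bcl2 (0.97) and Pim2 (0.31) were higher, and of the STAT4 targets Il18r1 (0.95) and Il18rap (0.28), the chains of the IL-18 receptor. Over the omissions of 1 array 1 to 3 STAT5 targets and 1 to 3 STAT4 targets were higher in NOD. Il18r1 was the 1 listed gene whose Treg change differed between the strains: it was lower in Treg of B6g7 (-0.66) and higher in Treg of NOD (1.04), a difference of 1.70 (adjusted p = 0.000225). Its strain difference was 1.80 in Treg and 0.10 in Tconv.

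Of 15 interferon-stimulated genes 4 were lower in NOD, at a list median of -0.27. These were Rsad2 (-1.37 ± 0.21, adjusted p = 0.00108), Usp18 (-1.05 ± 0.20, adjusted p = 0.00696), Ifit3 (-0.75 ± 0.20, adjusted p = 0.0445) and Oas2 (-0.31 ± 0.08, adjusted p = 0.0363). Each of these 4 spread more among NOD arrays than among B6g7 arrays. For Rsad2 the SD was 0.58 in NOD Tconv and 0.52 in NOD Treg against 0.27 in each B6g7 group. The standard errors use 1 spread per probe set over all groups. Irf1, which answers interferon gamma, was higher (0.33 ± 0.08, adjusted p = 0.0312), a call that was lost with quantile normalization and in 9 of the 12 omissions of 1 array, all but those of B6g7 Tconv replicate 3, NOD Tconv replicate 2 and NOD Treg replicate 2. The number lower was 2 to 5 when 1 array was left out and 1 to 5 under the other settings. Stat2 itself, in the same comparison, had the intervals given above, from -0.52 to 0.18 on its brightest probe set and from -0.18 to 0.20 on the other.

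Markers of other cell types that a spleen sort could hold were mostly level between Treg and Tconv, at 0 of 9 called for monocytes and macrophages, 0 of 7 for dendritic cells, 0 of 6 for neutrophils and 0 of 6 for erythroid cells and platelets. Of 9 B cell genes Cd79b (0.79) and Bank1 (0.62) were higher in Treg, with a summed intensity of the list from 878 to 1053 in B6g7 Tconv, 932 to 1149 in B6g7 Treg, 895 to 1019 in NOD Tconv and 920 to 1019 in NOD Treg. Of 7 NK cell genes Klrd1 was lower in Treg (-3.98), and the summed intensity was 1094 to 1388 and 802 to 1112 in Tconv of B6g7 and NOD against 338 to 450 and 374 to 424 in Treg. The other 6 NK cell genes were not called, with changes from -0.27 (Gzma) to 0.09 (Klra8), so Klrd1 carries the drop of the sum. Of 4 CD8 T cell genes Eomes was higher (1.24) and Gzmk lower (-0.24), with summed intensities of 425 to 493 in Tconv and 499 to 599 in Treg of B6g7 and of 443 to 458 and 652 to 826 in those of NOD. Eomes carries the higher sum, since Cd8a (-0.04) and Cd8b1 (-0.10) were not called. Between the strains Bank1 was lower in NOD (-0.87). What part such cells had in the values of the members was not tested.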

How the data were processed

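RNA was measured on Affymetrix mouse arrays in 12 samples. The authors deposited linear intensities, 1 for each probe set on each array, after RMA normalization (named in the series text and, separately, by the submitters' processing notes), and they averaged replicates for their Treg to Tconv ratios; the software version is not given in the sources used here. Per the labels' protocols, Trizol extraction was followed by 2 rounds of amplification. Here log2 of the deposited intensities was taken with no further step. Of 45101 probe sets, 64 controls were left out; 34945 of the rest name 1 gene, 932 several and 9160 none, by the platform annotation. The deposited values hold no detection calls.

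Tests used limma 3.58.1 in R 4.3.3 (a mean per group, eBayes), with all 12 arrays in 1 fit and 7 comparisons; the fit was tested on simulated data. For each gene the probe set of highest mean was used. The members and lists were chosen with earlier results of these data known. All member probe sets are described; from each list the 3 called genes of smallest p in the averaged Treg comparison are named, and the others named were chosen after their values were seen. The main fit did not pair arrays. A rule asked whether all same-numbered deviations of a pair of groups, by the labels' replicate numbers, correlated above 0.1. It held for NOD Tconv with NOD Treg (0.31 to 0.56), B6g7 Treg with NOD Treg (0.30 to 0.67) and B6g7 Treg with NOD Tconv. It did not hold for B6g7 Tconv. Arrays of unlike number could correlate as much. B6g7 Treg replicate 3 gave 0.31 with NOD Treg replicate 2 and 0.30 with NOD Treg replicate 3. B6g7 Treg replicate 2 gave 0.31 with NOD Tconv replicate 3. In these 2 pairs of groups the rule therefore does not establish a pairing by number. Alternatives were quantile normalization, median centring, dim probe sets left out, array weights, only the arrays compared, the replicate block, trend and robust eBayes, the actin covariate, omission of arrays and the mean of a gene's probe sets. Settings for the lists and for the second brightest Stat3 probe set were added after the data were seen. Promoter windows came from RefSeq GRCm38.p6.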

Additional observations from a re-analysis of the deposited data

How the results depend on the processing

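The number of member probe sets called changed with the settings, within small counts. For Treg against Tconv in B6g7 it was 2, and 1 with median centring, 0 with only the arrays compared, 3 with array weights (2 of Stat5a and Stat3 1460700_at), 1 with trend and robust eBayes, 1 without the 4 arrays numbered 1, and 0 to 1 when 1 array was left out. For NOD it was 0, and 1 with median centring, 1 with array weights, 3 with the replicate block, 1 with the actin covariate, and 0 to 1 when 1 array was left out. Averaged over the strains it was 2, and 4 with array weights, 4 with the replicate block, 3 with the actin covariate, 1 with trend and robust eBayes, and 1 to 2 when 1 array was left out. For NOD against B6g7 it was 0 in Tconv and 1 with the replicate block (Stat3 at 0.50, adjusted p = 0.0475), 0 in Treg and 1 with array weights (Stat3 at 0.46, adjusted p = 0.0353). Averaged over the populations it was 1, and 0 with median centring, 2 with array weights, and 0 to 1 when 1 array was left out. The strain difference in the Treg change gave 0 called members in all 20 alternatives. Stat5b averaged over the strains passed with the replicate block (0.33, adjusted p = 0.047), quantile normalization (0.019), the actin covariate (0.0239), the mean of its probe sets (0.0271) and without B6g7 Treg replicate 2 (0.0394). The cause of these shifts was not tested. Array weights, the block and the covariate also raised the counts over all probe sets, to 4796, 3829 and 4138 from 2632 for the averaged Treg change. In B6g7 they gave 3460, 2286 and 2496 against 1519, and in NOD 2047, 2362 and 2225 against 1443. For NOD against B6g7 averaged over the populations they gave 3920, 3494 and 3880 against 2475. In Tconv the block gave 2124 against 1333, and in Treg array weights gave 2361 against 1468. The B6g7 count fell to 1434 with median centring and 976 with only the arrays compared.

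Of 1503 log2 differences recomputed, 87 changed sign, and 0 of those were called in either setting. The mean over a gene's probe sets has no count of probe sets, and only the arrays compared has no averaged value, so these were not run there. Signal limits 1 member probe set: Stat5a 1450259_a_at was dim in all 4 groups, so the size of its differences is uncertain.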

Other observations

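Tyk2, the JAK kinase outside the members, was read after the other values were seen. Its brighter probe set, 1417306_at, averaged 9.16 ± 0.12 (SD, n = 3) and 9.44 ± 0.17 in Tconv and Treg of B6g7, and 9.19 ± 0.16 and 9.24 ± 0.06 in those of NOD. The Treg change averaged over the strains was 0.17 ± 0.08 (SE, limma adjusted p = 0.38), with a 95% interval from -0.01 to 0.34. The other probe set, 1432576_at, had a change of -0.12 ± 0.10 (adjusted p = 0.755).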
